A study of Mus musculus with 6 samples.

Results

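The genes described here govern how pyruvate enters mitochondria and is turned into acetyl-CoA. They are 10 mouse genes chosen by name for this pathway, with earlier results of these data known. Other genes of the complex and its regulation, Dld, Pdk3, Pdp1 and Pdpr among them, are described apart below. The 10 genes all had a row among the 20894 genes of the table. All 10 also passed the filter on low counts that left 10802 genes for testing. Mpc1 and Mpc2 encode the subunits of the mitochondrial pyruvate carrier. Pdha1, Pdhb, Dlat and Pdhx encode the alpha and beta chains of the E1 decarboxylase, the E2 transacetylase and the E3-binding protein of the pyruvate dehydrogenase complex. Pdk1, Pdk2 and Pdk4 encode kinases that switch the complex off, and Pdp2 encodes a phosphatase that switches it back on.

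Pyruvate made by glycolysis in the cytosol crosses the inner mitochondrial membrane through the carrier, and the dehydrogenase complex then converts it to acetyl-CoA. The kinases phosphorylate the E1 alpha chain and so stop the complex, and the phosphatases remove that phosphate. In liver the complex is held down during fasting, when fatty acids are burned and pyruvate is kept for glucose synthesis, and it is more active after feeding, when its acetyl-CoA can serve fat synthesis.

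Liver RNA of mice carrying the Cre-dependent allele Irf3LSL-2D was sequenced in 6 libraries. The IRF3-2D group (3 libraries) had been injected with AAV8-TBG-Cre and the Ctrl group (3 libraries) with AAV8-TBG-GFP. In such an allele Cre removes a stop cassette, and here it then lets the IRF3-2D form of the antiviral transcription factor IRF3 be made; the TBG promoter is active in hepatocytes. Both groups were given 3 g/kg ethanol intraperitoneally and killed 2 h later, so every value below comes from ethanol-exposed liver. Age and sex are not given in the labels, and Cre against GFP cannot be told apart from the effect of the allele.

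Library totals were 12054096 to 13606973 counts in IRF3-2D and 13940893 to 14830629 in Ctrl. Levels below are CPM, counts scaled to a common library size, after TMM scaling, whose factors were 1.12 to 1.23 in IRF3-2D and 0.822 to 0.879 in Ctrl. With library totals alone in place of TMM, the median log2 fold change of all tested genes was 0.49 in place of 0.03. A change under that scaling is therefore read below against 0.49. Markers of liver cell types also moved between the groups. Of 11 tested hepatocyte markers 8 fell and 1 rose, with summed levels of 78414 to 89894 CPM in IRF3-2D and 142660 to 196190 in Ctrl. Of 13 Kupffer cell and macrophage markers 5 rose and none fell (1003 to 1371 CPM in IRF3-2D, 591 to 711 in Ctrl). Of 10 endothelial markers 5 fell and none rose (349 to 468 CPM in IRF3-2D, 529 to 554 in Ctrl). With library totals alone 4 hepatocyte markers were lower and 2 higher, 9 macrophage markers were higher, and no endothelial marker was lower and 1 was higher. None of these marker genes with a row was at 0 in all libraries. Mitochondrially encoded genes took 7.87% to 8.79% of counts in IRF3-2D and 11.5% to 12% in Ctrl, without overlap. The part of these shifts in the results below was not tested, and in whole tissue fewer cells of a type and less RNA per cell cannot be told apart.

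Of the 10 genes, 5 fell in IRF3-2D liver: Mpc1, Pdha1, Pdk1, Pdk2 and Pdp2. By edgeR none of the 10 rose, nor did any with DESeq2 or limma-voom. Pdk3, a kinase gene outside the 10, was called higher by edgeR and is described below. At an unadjusted p under 0.05 edgeR had 0 of the 10 higher and 6 lower. The share of all tested genes at that unadjusted threshold was not counted, so these counts cannot be set against it. Calls are those of edgeR's quasi-likelihood test at a Benjamini-Hochberg adjusted p under 0.05 over all 10802 genes, among which 13.1% were lower, 13.2% higher and 26.3% called in either direction. The falls therefore took in a carrier subunit, the E1 alpha chain, 2 inhibitory kinases and the activating phosphatase. The median log2 fold change of the 10 genes was -0.42, against 0.03 for all tested genes. As the 10 were chosen with earlier results known, such counts and medians describe them and are no test. In 6 of the 10 every IRF3-2D library stood below every Ctrl library, and in none was every IRF3-2D library above, while 21.2% of all tested genes were wholly below and 23.7% wholly above, 44.9% in all. The falls of Pdha1, Pdk2 and Pdp2 were called in all 14 alternative settings, library totals alone included. With library totals alone Mpc1 and Pdk1 were no longer called, and Pdhx was called higher.

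**Figure D1:**
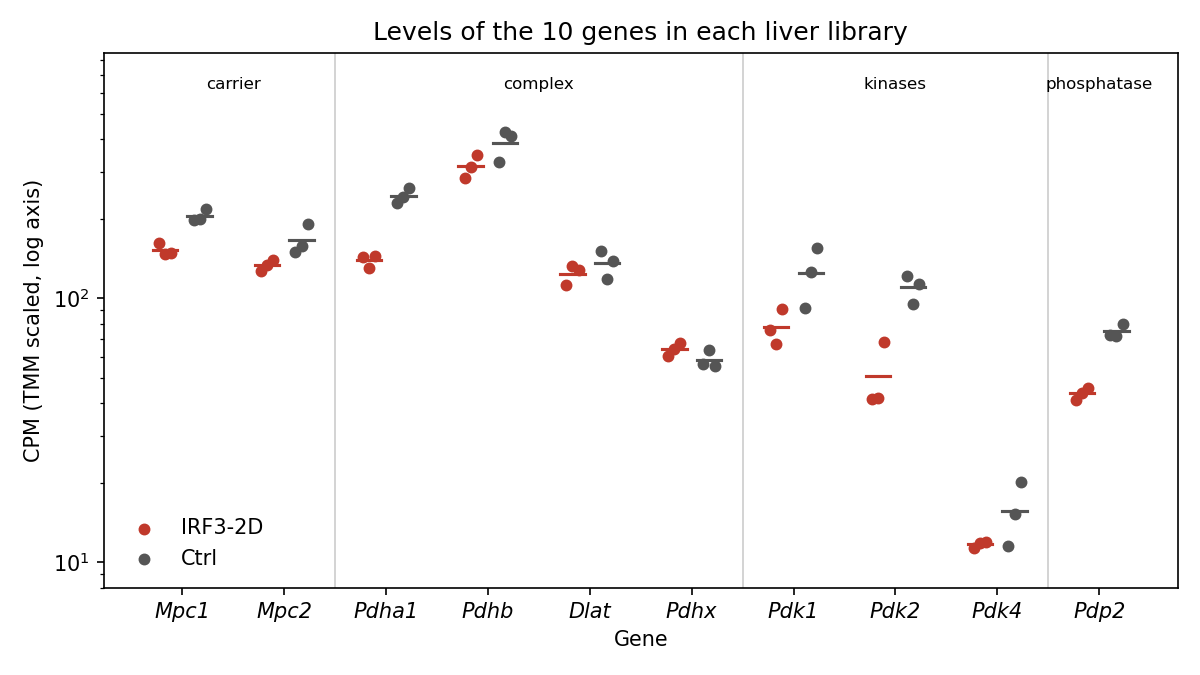
CPM after TMM scaling (log axis) of the 10 genes, with 1 point per library and a line at each group's mean, IRF3-2D in red and Ctrl in grey. Points of the groups do not overlap for Mpc1, Mpc2, Pdha1, Pdk1, Pdk2 and Pdp2.

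Per kilobase of the median coding transcript, carrier and E1 beta transcripts were the most abundant of the 10 and those of Pdp2 and Pdk4 the least. In IRF3-2D liver Pdhb stood at 209 ± 20.8 CPM per kb and Mpc1 at 200.3 ± 10.8, and in Ctrl liver Mpc1 stood at 269 ± 14.6 and Pdhb at 257 ± 34.5 (SD, n = 3 each). These 2 genes overlapped within each group, so their order is not resolved. Mpc2 and then Pdha1 came next of the 10 in each group. Dlat and Pdhx, which overlapped in each group, stood at 30.7 ± 2.57 and 30.8 ± 1.69 CPM per kb in IRF3-2D and at 33.6 ± 4.13 and 28.1 ± 2.22 in Ctrl. Pdk2 ranked below both of them in IRF3-2D liver, where its range overlapped theirs, and above both in Ctrl liver. Pdk4 was lowest of the 10, at 5.75 ± 0.145 CPM per kb in IRF3-2D and 7.70 ± 2.12 in Ctrl, with Pdp2 next above it in both groups. Annotated lengths set this scale, so it compares genes only roughly.

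The carrier works as a pair of MPC1 and MPC2, and a cell that lacks either chain loses the pair. Mpc1 (ENSMUSG00000023861) had 162, 147 and 149 CPM in the IRF3-2D libraries, against 198, 199 and 218 CPM in the Ctrl libraries. Every IRF3-2D value was below every Ctrl value, and the log2 fold change was -0.43 (SE 0.09, adjusted p = 0.0112 by edgeR). That call was lost without IRF3-2D replicate 2 (log2 fold change -0.40), and with library totals alone the value was 0.03. Mpc1 shares 12.6% of its 31-base words with other genes, chiefly the pseudogene Mpc1-ps, so the placement of some of its reads is uncertain. An annotated antisense gene, 4930506C21Rik, also overlaps its exons, and the strand setting of the counting is not given in the sources used here.

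Mpc2 (ENSMUSG00000026568) had 127, 133 and 139.7 CPM in the IRF3-2D libraries, against 150.1, 158 and 191 CPM in the Ctrl libraries. The groups did not overlap, yet the difference was not called (log2 fold change -0.32, SE 0.11, adjusted p = 0.0724 by edgeR). It was called by DESeq2 and without Ctrl replicate 1, at log2 fold changes of -0.35 and -0.39. The Mpc1 to Mpc2 ratio, which does not depend on how libraries are scaled, was 1.55 ± 0.155 in IRF3-2D and 1.67 ± 0.120 in Ctrl (per kb, SD, n = 3 each). The groups overlapped in this ratio, at a log2 difference of -0.11 (exact permutation test, two-sided p = 0.3).

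Within the dehydrogenase complex the E1 alpha gene fell, and no other core gene was called. Pdha1 (ENSMUSG00000031299) is X-linked and encodes the chain that carries the phosphorylation sites of the kinases. It had 143, 130.5 and 145 CPM in the IRF3-2D libraries, against 229.6, 243 and 262 CPM in the Ctrl libraries. No value overlapped, and the fall was 1.75-fold (log2 fold change -0.81, SE 0.09, adjusted p = 0.00103 by edgeR). Its log2 fold change with library totals alone was -0.36, below the 0.49 of the median gene and still called. Pdha1 shares 1.81% of its words with other genes and overlaps exons of Map3k15 on the opposite strand, a gene that was itself not called (adjusted p = 0.146 by edgeR).

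Pdhb (ENSMUSG00000021748), which encodes the partner E1 beta chain, had 286, 314 and 348 CPM in the IRF3-2D libraries, against 329, 425 and 413 CPM in the Ctrl libraries. The highest IRF3-2D value exceeded the lowest Ctrl value, and the log2 fold change of -0.30 was not called (SE 0.13, adjusted p = 0.132 by edgeR). DESeq2 did call Pdhb lower, as did the fit without Ctrl replicate 1 (log2 fold change -0.41). Pdhb shares 17.4% of its words with other genes, chiefly Gm6123.

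The alpha to beta ratio of E1 transcripts was lower in every IRF3-2D library than in every Ctrl library. Per kb, Pdha1 over Pdhb was 0.267, 0.221 and 0.221 in the IRF3-2D libraries, against 0.371, 0.303 and 0.337 in the Ctrl libraries. The groups did not overlap, and the log2 difference was -0.51. The exact permutation test gave a two-sided p = 0.1, the smallest that 3 libraries against 3 allow, and 0.375 adjusted over the 15 ratios and shares compared. Pdha1 over Dlat behaved alike, at 1.61 ± 0.205 in IRF3-2D and 2.59 ± 0.391 in Ctrl (SD, n = 3 each; exact permutation p = 0.1, 0.375 adjusted over the 15). Since these ratios are taken within a library, they are the same under every scaling. A ratio sets the genes against each other and does not show which of them moved.

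Dlat (ENSMUSG00000000168), the acetyltransferase core, had 112, 132 and 127 CPM in the IRF3-2D libraries, against 151, 118 and 138 CPM in the Ctrl libraries. The groups overlapped (log2 fold change -0.13, SE 0.12, adjusted p = 0.455 by edgeR), and no alternative called it. Pdhx (ENSMUSG00000010914), which tethers the E3 enzyme to the core, had 60.5, 64.0 and 67.5 CPM in the IRF3-2D libraries, against 56.3, 63.8 and 55.3 CPM in the Ctrl libraries. It was the gene of the 10 with a positive log2 fold change, 0.13 (SE 0.09, adjusted p = 0.324 by edgeR). Library totals alone made Pdhx a gene called higher, at 0.59 against 0.49 for the median gene.

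Of the kinases, Pdk2 and Pdk1 were called lower and Pdk4 was not. Pdk2 (ENSMUSG00000038967), a widely expressed kinase prominent in liver, fell most of the 10 genes, 2.18-fold. It had 41.5, 42.0 and 68.0 CPM in the IRF3-2D libraries, against 122, 95.2 and 113 CPM in the Ctrl libraries. The third IRF3-2D library was the highest of its group and still below every Ctrl library (log2 fold change -1.12, SE 0.21, adjusted p = 0.00813 by edgeR). Without that library the log2 fold change was -1.41, and over all 6 fits that leave out a library it was negative in each, -1.41 being the farthest from 0. Pdk2 shares no 31-base word with another gene.

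Pdk1 (ENSMUSG00000006494), a kinase induced by hypoxia, had 75.6, 67.2 and 91.4 CPM in the IRF3-2D libraries, against 91.9, 126 and 155 CPM in the Ctrl libraries. The closest libraries of the groups, at 91.4 and 91.9 CPM, nearly met. The fall was 1.59-fold and only just called (log2 fold change -0.67, SE 0.20, adjusted p = 0.0482 by edgeR). Of the 6 fits that leave out a library the call held in 1, that without Ctrl replicate 1, and their log2 fold changes lay between -0.85 and -0.48. It was also lost with limma-voom, with no filter on low counts and with library totals alone (-0.65, -0.66 and -0.22).

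Pdk4 (ENSMUSG00000019577), the kinase best known for its rise in fasting, had 11.3, 11.8 and 11.9 CPM in the IRF3-2D libraries, against 11.5, 15.2 and 20.1 CPM in the Ctrl libraries. The IRF3-2D libraries lay close together, while the Ctrl libraries spread from within the IRF3-2D range upwards. The difference was not called (log2 fold change -0.42, SE 0.21, adjusted p = 0.189 by edgeR). It rested on single Ctrl libraries, with a log2 fold change of -0.20 without Ctrl replicate 3 and of -0.60, then called, without Ctrl replicate 1.

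Within libraries, and so under any scaling, Pdk2 over Pdk1 was 1.48 ± 0.228 in IRF3-2D and 2.16 ± 0.778 in Ctrl, and Pdk2 over Pdk4 was 3.90 ± 1.11 in IRF3-2D and 6.76 ± 2.43 in Ctrl (per kb, SD, n = 3 each). Both ratios overlapped between the groups (log2 differences -0.50 and -0.77, exact permutation p = 0.2 each). Pdk4 over Pdk1 was 0.383, 0.448 and 0.332 in the IRF3-2D libraries, against 0.320, 0.309 and 0.330 in the Ctrl libraries. These did not overlap, though the nearest libraries stood at 0.332 and 0.330 (log2 difference 0.27, exact permutation p = 0.1, 0.375 adjusted over the 15).

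The share of each kinase among the transcripts of the 4 kinase genes, per kb, does not depend on scaling. Pdk2 made up 46.9%, 48.9% and 55.8% in the IRF3-2D libraries, against 69.6%, 56.9% and 55.6% in the Ctrl libraries. It was the largest share in every library, and the groups overlapped (exact permutation, two-sided p = 0.2). That rank depends on the annotated lengths, 2246 bases for Pdk2 and 5185 for Pdk1. Before division by length, Pdk1 exceeded Pdk2 in every library but Ctrl replicate 1. Pdk1 made up 34.5% ± 2.34 in IRF3-2D and 29.5% ± 5.86 in Ctrl, and Pdk4 made up 13.4% ± 2.32 in IRF3-2D and 9.45% ± 1.92 in Ctrl (SD, n = 3 each). These shares overlapped too (exact permutation p = 0.3 and 0.2). Pdk3 held 1.63% ± 0.531 in IRF3-2D and 0.309% ± 0.0910 in Ctrl without overlap (SD, n = 3 each). The exact permutation test gave p = 0.1 for Pdk3, 0.375 adjusted over the 15 ratios and shares. Its shares rest on 5 to 24 counts per library.

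**Figure D2:**
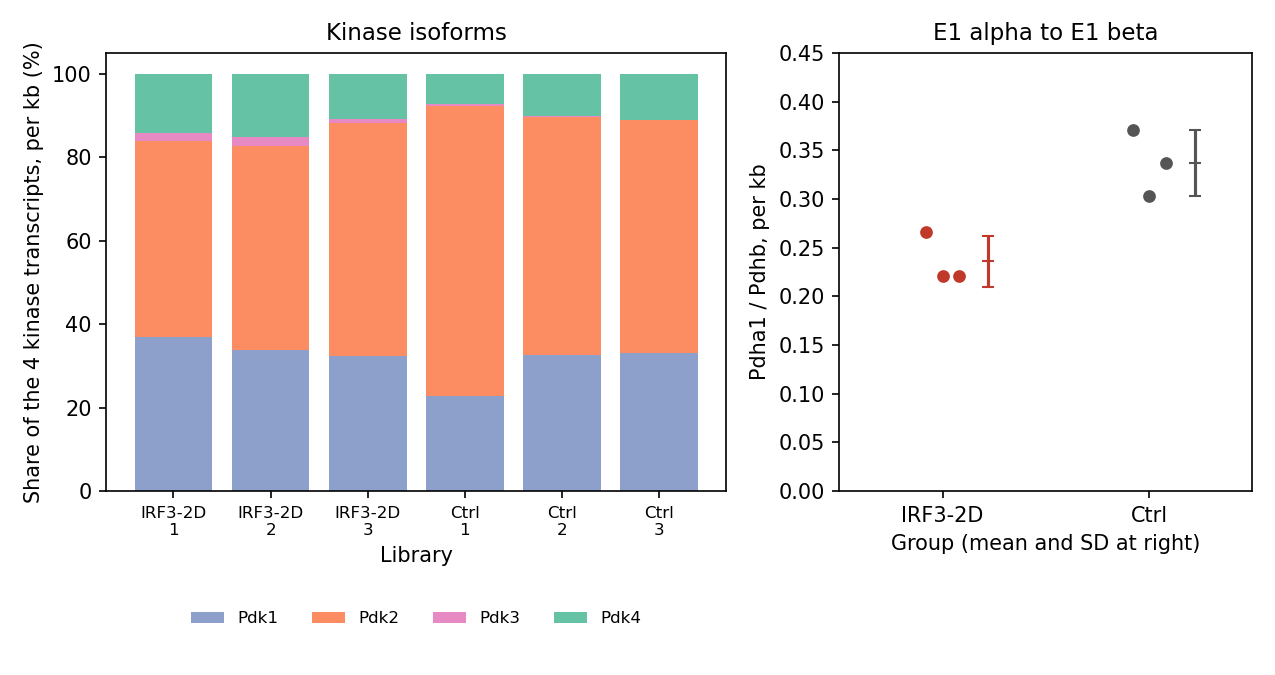
Left, share (%) of each of the 4 kinase genes in their summed transcripts per kb, 1 bar per library, IRF3-2D libraries first. Right, ratio of Pdha1 to Pdhb per kb, 1 point per library with mean and SD at the right of each group; the IRF3-2D points lie between 0.221 and 0.267 and the Ctrl points between 0.303 and 0.371.

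Pdp2 (ENSMUSG00000048371), a phosphatase isoform known from liver and fat and sensitive to insulin, fell 1.72-fold. It had 41.1, 43.8 and 45.6 CPM in the IRF3-2D libraries, against 72.8, 71.9 and 79.8 CPM in the Ctrl libraries. The groups stood well apart, and its adjusted p was the smallest of the 10 (log2 fold change -0.78, SE 0.08, adjusted p = 0.000801 by edgeR). Pdp2 has 1 annotated transcript, so no choice among annotated isoforms enters its counts. Scaled by library totals alone, its log2 fold change was -0.33 and still called. The Pdp2 to Pdk2 ratio was 0.356 ± 0.0796 in IRF3-2D and 0.271 ± 0.0318 in Ctrl (per kb, SD, n = 3 each), with overlapping groups (exact permutation p = 0.3).

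**Figure D3:**
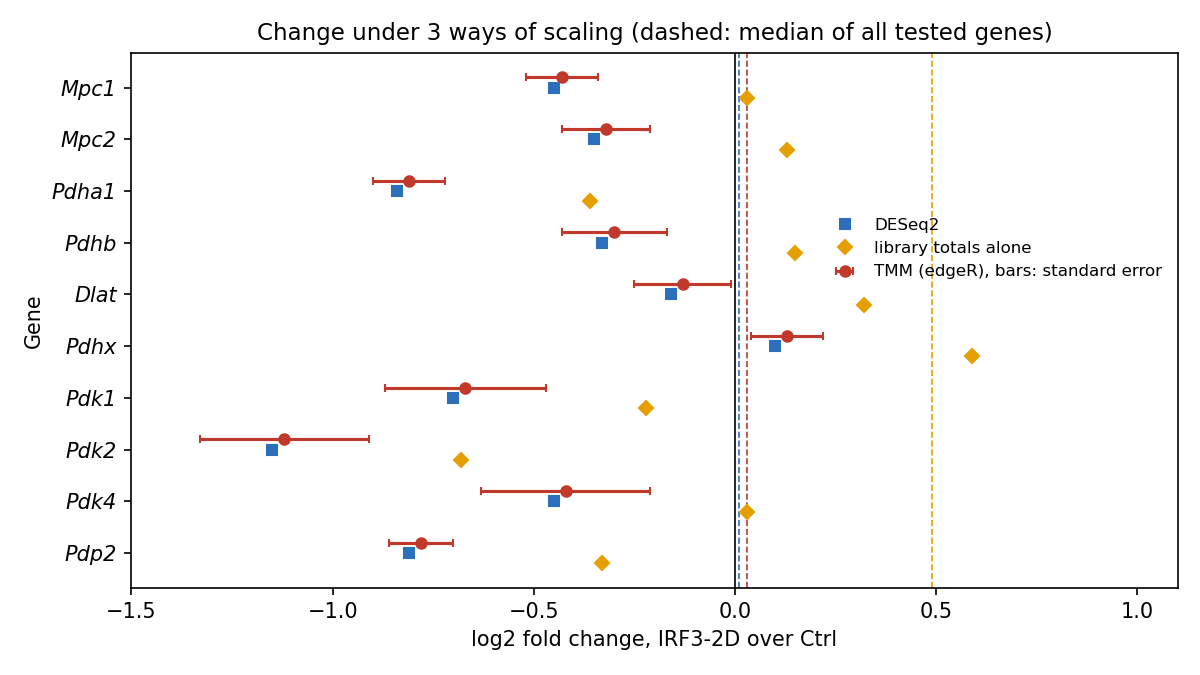
log2 fold change of IRF3-2D over Ctrl for the 10 genes with edgeR and TMM (red, bars are standard errors), DESeq2 (blue) and edgeR with library totals alone (orange); dashed lines mark each scaling's median of all tested genes, 0.03, 0.01 and 0.49. Pdha1, Pdk2 and Pdp2 lie left of 0 under all 3, as does Pdk1, whose call was lost with library totals alone.

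The promoters of Pdha1, Pdk2 and Pdp2, the genes called lower under every setting, are shown to let their start regions be compared. Each window runs from 250 bases before to 50 bases after the RefSeq start site on GRCm38.p6, 5′ to 3′ on the gene's strand, and capitals mark an E-box. The windows are chrX:160138381-160138680 (minus strand) for Pdha1, chr11:95041322-95041621 (minus strand) for Pdk2 and chr8:104591222-104591521 (plus strand) for Pdp2. Pdk2 has a second RefSeq window, chr11:95040826-95041125 (minus strand), which held none of the motifs searched.
Pdha1: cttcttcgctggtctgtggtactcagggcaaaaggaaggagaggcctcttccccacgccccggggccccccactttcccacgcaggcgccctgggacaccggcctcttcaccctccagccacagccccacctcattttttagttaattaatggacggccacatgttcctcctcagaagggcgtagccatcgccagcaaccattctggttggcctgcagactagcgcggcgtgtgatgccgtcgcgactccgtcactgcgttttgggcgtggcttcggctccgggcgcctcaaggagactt
Pdk2: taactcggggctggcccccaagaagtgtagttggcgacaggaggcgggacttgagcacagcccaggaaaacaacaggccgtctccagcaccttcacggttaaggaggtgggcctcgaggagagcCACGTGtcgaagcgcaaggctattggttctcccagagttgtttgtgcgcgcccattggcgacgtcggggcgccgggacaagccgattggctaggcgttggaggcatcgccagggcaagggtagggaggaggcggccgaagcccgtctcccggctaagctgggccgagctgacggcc
Pdp2: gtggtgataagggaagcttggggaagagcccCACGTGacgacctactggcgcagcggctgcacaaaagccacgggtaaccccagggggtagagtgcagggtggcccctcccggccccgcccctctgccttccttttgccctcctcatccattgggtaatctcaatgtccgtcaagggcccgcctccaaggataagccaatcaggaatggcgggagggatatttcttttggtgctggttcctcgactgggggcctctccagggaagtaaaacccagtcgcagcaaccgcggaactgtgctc
RefSeq gives 13 such windows for the 10 genes, and each of the 10 had at least 1. Their median GC content was 62.0%, against 52.7% over all 32851 promoters of the table. The E-box CACGTG, a site of basic helix-loop-helix factors, occurred in 2 of the 13 windows, those of Pdk2 and Pdp2 shown here, and in 7.15% of all promoters and 9.44% of the 11029 promoters of tested genes. No window held the interferon-stimulated response element core, GAAA and GAAA with 2 bases of any kind between them, which occurs in 3.44% of all promoters and 3.43% of those of tested genes. The other 3 motifs searched, all on both strands, were likewise not found in these windows. The DR1 element of nuclear receptors such as PPARalpha, AGGTCA repeated after 1 base, occurs in 0.0396% of all promoters and 0.0453% of those of tested genes. The FOXO element TGTTTAC occurs in 3.65% and 2.70% of these sets, and the NRF1 element, GCGCA and GCGC with 1 base between them, in 4.60% and 9.30%. No motif match overlapped another, and the E-box and the NRF1 element were added after the sequences had been read.

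Of the remaining genes of the complex and its regulation, Dld was abundant and not called with TMM. The others were scarce or called only in part of the fits. Dld, the E3 enzyme shared with other dehydrogenases, had 216 ± 11.1 CPM in IRF3-2D and 231 ± 13.7 in Ctrl (SD, n = 3 each) and was not called (log2 fold change -0.10, adjusted p = 0.465 by edgeR). It was called higher with library totals alone, at 0.36 against 0.49 for the median gene. Pdpr, a regulatory subunit of the phosphatase, was called lower, at 30.1 ± 4.11 CPM in IRF3-2D and 41.3 ± 4.15 in Ctrl (log2 fold change -0.46, SE 0.13, adjusted p = 0.0375 by edgeR). That call was lost without IRF3-2D replicate 1 or 3 (-0.48 and -0.37), without Ctrl replicate 1 or 3 (-0.46 and -0.39), with the replicate block and with library totals alone. An antisense gene, 9430091E24Rik, overlaps Pdpr exons.

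Pdk3, a kinase sparse in liver, had 24, 24 and 18 counts in the IRF3-2D libraries, against 7, 7 and 5 counts in the Ctrl libraries. The groups did not overlap and it was called higher (log2 fold change 1.48, SE 0.44, adjusted p = 0.0451 by edgeR). The call was lost in each fit without 1 library, at log2 fold changes of 1.31 to 1.59, and with DESeq2, limma-voom, no count filter and the replicate block. Pdp1, the other phosphatase, had 31, 16 and 32 counts in the IRF3-2D libraries, against 17, 7 and 10 counts in the Ctrl libraries. These overlapped and were not called (log2 fold change 0.90, adjusted p = 0.231 by edgeR). Pdha2, the testis form of E1 alpha, was at 0 in all 6 libraries.

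The E2 core of the complex works through a lipoyl cofactor. Of 9 tested genes for making and attaching it, none was called by edgeR, DESeq2 or limma-voom. With edgeR 1 of them passed an unadjusted p of 0.05, a threshold at which all tested genes were not counted. The median log2 fold change of the 9 was -0.10, against 0.03 for all tested genes. Bola3, an iron-sulfur cluster factor needed for lipoylation, had the smallest p, at 33.2 ± 3.02 CPM in IRF3-2D and 26.5 ± 2.62 in Ctrl (adjusted p = 0.0754 by edgeR). Bola3 was among 3 of these genes called higher with library totals alone. Of the outer membrane channels that let pyruvate reach the inner membrane, Vdac1 and Vdac2 were tested and not called, with Vdac1 at 262 ± 15.2 CPM in IRF3-2D and 273 ± 18.4 in Ctrl (SD, n = 3 each; adjusted p = 0.655 by edgeR).

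Among 16 tested genes for sources and other fates of pyruvate, 6 fell and none rose, with a median log2 fold change of -0.39. Over all tested genes 13.1% were lower and 13.2% higher, with a median of 0.03. This list and those below were chosen with earlier results known, so their counts and medians describe them and are no test. Slc16a7, which encodes the monocarboxylate carrier MCT2 with high affinity for pyruvate, fell 3.72-fold, at 21.1 ± 5.23 CPM in IRF3-2D and 78.6 ± 19.8 in Ctrl. Pck1, which draws oxaloacetate made from pyruvate into glucose synthesis, fell 1.79-fold, at 2674 ± 198 CPM in IRF3-2D and 4780.2 ± 476 in Ctrl (SD, n = 3 each). Bsg, the chaperone of monocarboxylate carriers, fell 1.32-fold, a call lost without IRF3-2D replicate 2 (log2 fold change -0.38) and with library totals alone, where 2 of the 16 were lower and 1 was higher. Without IRF3-2D replicate 1 or 2 the number of the 16 called lower was 3 or 2, and in the other fits without 1 library it was 4 to 8. Ldhb and Me1 were at 0 in all 6 libraries, and Ldha had 7 to 100 counts, so the table may hold only part of some genes' output.

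Of 13 tested genes of the tricarboxylic acid cycle, which takes up the acetyl-CoA, 5 fell and 1 rose (median log2 fold change -0.16). The shares over all tested genes were 13.1% lower and 13.2% higher. Cs, citrate synthase, the enzyme that joins acetyl-CoA to oxaloacetate, rose 1.51-fold, at 307 ± 17.1 CPM in IRF3-2D and 203 ± 10.7 in Ctrl (SD, n = 3 each; adjusted p = 0.00309 by edgeR). The succinyl-CoA ligase genes Suclg1 and Suclg2 fell 1.61-fold and 1.51-fold (adjusted p = 0.00302 and 0.00535 by edgeR). With library totals alone none of the 13 was lower and 6 were higher. The number called lower was 2 without IRF3-2D replicate 1 or 2, 3 without Ctrl replicate 1 or 3, and 4 or 5 without Ctrl replicate 2 or IRF3-2D replicate 3. Suclg2 shares 20.6% of its words with other genes. Mdh2 was at 0 in all 6 libraries and was not tested.

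Of 7 tested genes of the related branched-chain and 2-oxoglutarate dehydrogenases, which have the same architecture, 4 fell and none rose (median log2 fold change -0.46). Among all tested genes 13.1% fell and 13.2% rose. Ogdh and Dlst are in this list and in that of the tricarboxylic acid cycle. Ppm1k, the phosphatase of the branched-chain complex, fell 2.07-fold, at 41.7 ± 1.71 CPM in IRF3-2D and 86.4 ± 11.9 in Ctrl (SD, n = 3 each; adjusted p = 0.00083 by edgeR). Its E1 alpha gene Bckdha and the 2-oxoglutarate dehydrogenase gene Ogdh fell 1.38-fold and 1.60-fold. Ogdh was low, at 12.2 ± 2.90 CPM in IRF3-2D and 19.5 ± 0.975 in Ctrl (SD, n = 3 each). Whether its counts cover all of its output is not known. The calls of Bckdha and Ogdh were lost with library totals alone and in all fits without 1 library except that without IRF3-2D replicate 3. Under library totals alone 1 of the 7 was lower and 1 higher. Leaving out a library gave 1 lower without IRF3-2D replicate 1 or 2 or Ctrl replicate 2 or 3, 2 without Ctrl replicate 1 and 4 without IRF3-2D replicate 3.

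Genes known to regulate Pdk4 transcription, and fasting genes that share those regulators, were called in part. Of 10 tested regulators 3 fell and 1 rose (median log2 fold change -0.27), beside 13.1% and 13.2% of all tested genes. Ppara, the fatty acid receptor, fell 2.62-fold, at 51.8 ± 5.01 CPM in IRF3-2D and 136 ± 8.58 in Ctrl. Its partner receptor Rxra fell 7.35-fold, at 1.30 ± 0.595 CPM in IRF3-2D and 9.61 ± 3.55 in Ctrl. That fall rests on few counts, 11, 19 and 29 in the IRF3-2D libraries, against 102, 162 and 88 in the Ctrl libraries. Whether these counts cover all of the output of Rxra is not known. The coactivator Ppargc1a rose 2.22-fold, at 95.8 ± 4.42 CPM in IRF3-2D and 43.2 ± 7.16 in Ctrl (SD, n = 3 each). These 3 calls held in all 14 alternatives. Under library totals alone 2 of the 10 were lower and 2 higher.

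Of 11 tested fasting genes 6 fell and 2 rose (median log2 fold change -0.77), beside 13.1% and 13.2% of all tested genes. The lists overlap: Pck1, among these falls, is also counted under sources and fates of pyruvate. Ppargc1a, among these rises, is also the rise counted among the regulators. The acyl-CoA thioesterase gene Acot1, which shares 22.7% of its words with other genes, fell 11.3-fold. It had few counts, 16, 18 and 18 in the IRF3-2D libraries, against 147, 139 and 198 in the Ctrl libraries. G6pc, whose product frees glucose from its phosphate, fell 2.59-fold, and Cpt1a, the gate of fatty acid entry into mitochondria, fell 2.37-fold. Cpt1a stood at 243 ± 34.6 CPM in IRF3-2D and 575 ± 48.6 in Ctrl (SD, n = 3 each; adjusted p = 0.000708 by edgeR). Under library totals alone 5 of the 11 were lower and 3 higher, and 1 was higher without IRF3-2D replicate 1 or 2 or Ctrl replicate 3. Whether Pdk4 changed less than these genes was not tested.

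Acetyl-CoA leaves mitochondria as citrate for fat synthesis. Of 9 tested genes for outlets of mitochondrial acetyl-CoA and citrate, acetate and carnitine enzymes among them, 3 fell and none rose (median log2 fold change -0.23). The shares over all tested genes were 13.1% lower and 13.2% higher. Acly, which releases acetyl-CoA from citrate, fell 1.99-fold, at 408 ± 49.3 CPM in IRF3-2D and 811 ± 27.7 in Ctrl. Fasn, fatty acid synthase, fell 2.25-fold, and the dicarboxylate carrier gene Slc25a10 fell 2.43-fold, at 70.3 ± 9.45 CPM in IRF3-2D and 171 ± 23.3 in Ctrl (SD, n = 3 each). The same counts, 3 lower and none higher, came with library totals alone. The citrate carrier gene Slc25a1 had too few counts to be tested, 0 to 13 per library. As for Ldhb, Me1 and Ldha, the table may hold only part of its output.

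**Figure D4:**
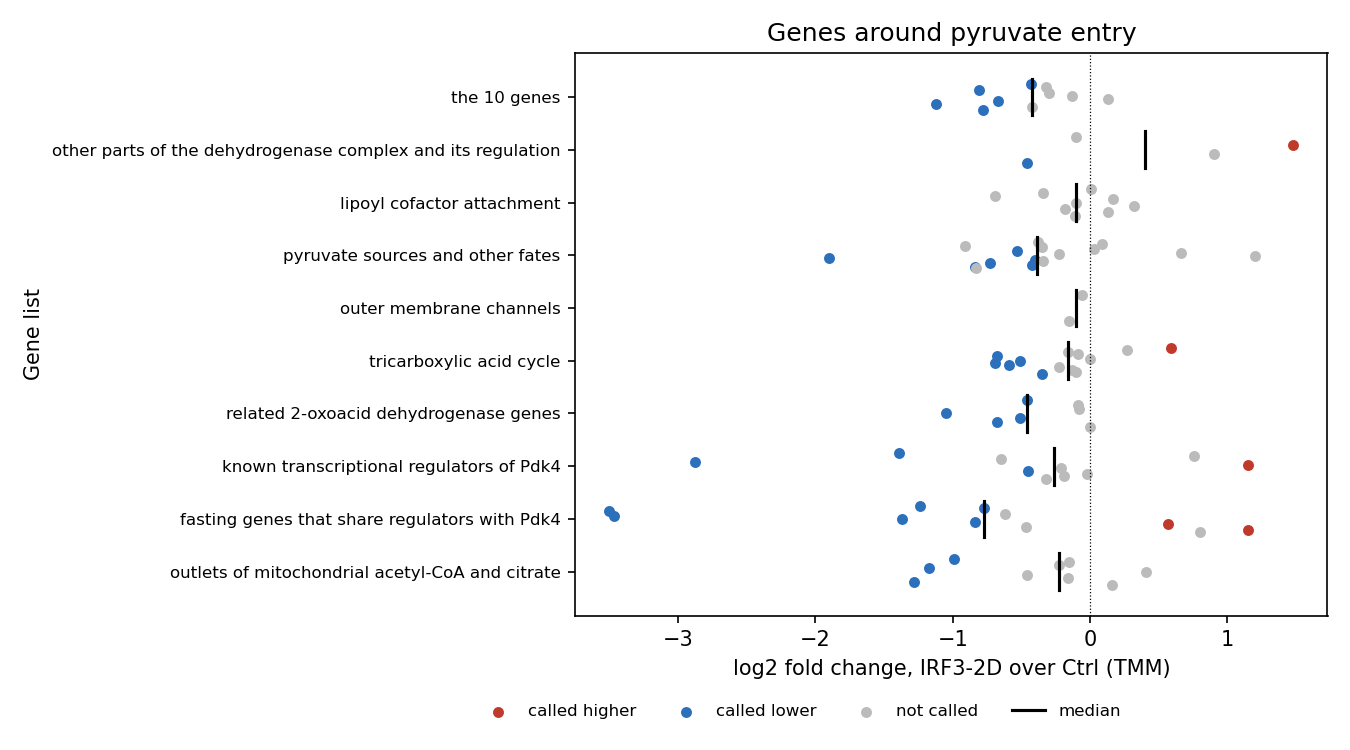
log2 fold change of IRF3-2D over Ctrl with TMM for each tested gene of the 10 and of the 9 surrounding lists, coloured by edgeR call, with a black line at each median. The median of the 10 genes is -0.42 and that of the fasting genes -0.77.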

How the data were processed

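Groups and replicate numbers came from the sample titles, and columns were matched by library name. The deposited values are estimated counts per gene, all whole numbers and not normalized. The submitters' processing notes list Salmon 1.2.1, with GRCm38 and mm10 as builds and no role for any; annotation, strand setting and filters are not stated. Libraries were poly-A selected and strand-specific, per the labels' protocols. Of 20894 identifiers 20817 had a GENCODE M21 symbol. Replicates are not said to be separate mice, so p-values measure the spread between samples, which may be technical. Chi-square per degree of freedom sets the spread between pairs of libraries of a group against counting error. It was 18.9 to 25.3 in IRF3-2D and 44.5 to 110 in Ctrl, highest for Ctrl replicates 1 and 2. The source of this spread was not tested.

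All genes were fitted together: filterByExpr, TMM and edgeR 4.0.16 quasi-likelihood (R 4.3.3), Benjamini-Hochberg over 10802 genes. SE is the log2 fold change over the root of its F. The test was tried on simulated counts. Alternatives were DESeq2 1.42.0, limma-voom (limma 3.58.1), RLE, upper-quartile or library totals, no filter, a mean count of at least 50, each library left out and a replicate block. The 10 genes and the lists were chosen with earlier results of these data known, as were the ratios. Named were the 10, the rest of the complex, and per list the 3 called genes of smallest adjusted p, or the smallest p where none was called; genes at 0 or with few counts (Ldhb, Me1, Ldha, Mdh2) and Vdac2 were named after their values were seen. A gene of the tricarboxylic acid cycle list is not reported here and was left out of its counts. Shared words are 31-base stretches of GENCODE M21 transcripts found in another gene. Exact permutation tests of ratios used log2 values.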

Additional observations from a re-analysis of the deposited data

How the results depend on the processing

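Of the 14 alternatives, library totals alone changed the counts most: 4500 genes were then higher and 571 lower over the whole table (1426 and 1418 with TMM), and of the 10 genes 1 was higher (Pdhx) and 3 were lower (Pdha1, Pdk2 and Pdp2). Leaving out single libraries gave 851 to 1312 genes higher and 920 to 1363 lower over the whole table, each lowest without IRF3-2D replicate 2. Of the 10 genes it gave 3 to 8 lower, 3 without IRF3-2D replicate 2 and 8 without Ctrl replicate 1, and 0 higher. DESeq2 called 7 of the 10 lower, and 1729 genes lower over the whole table. Among named or listed genes called with TMM or with library totals alone, these log2 fold changes changed sign with library totals alone: Mpc1 (0.03), Bsg (0.06), Mpst (0.03), Sdhd (0.10) and Foxo3 (0.01) were no longer called, while Dld (0.36), Vdac1 (0.39), Idh3g (0.28), Dlst (0.45), Sdhb (0.32), Sdhc (0.35) and Nr3c1 (0.44) were called higher. Of the 10 genes, Mpc2 (0.13), Pdhb (0.15), Dlat (0.32) and Pdk4 (0.03) also turned positive and were called in neither. The median of all tested genes moved up too, from 0.03 to 0.49, so these signs are to be read against that shift. What lies behind the shift was not tested.

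The replicate numbers did not pair the libraries: correlations of deviations between libraries of the same number were 0.096, -0.0339 and 0.0449, and not every library correlated best with its own number. With the replicate block 5 of the 10 genes were lower, and 1038 and 1128 genes were higher and lower over the whole table. Pdk3 and Pdp1 rest on few counts, and 3 counts, the floor of a library, are 0.194 to 0.252 CPM, for counting error only.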
